A study of Mus musculus with 4 samples.

Results

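The genes described here are 47 genes of DNA replication and of the supply of its building blocks, out of 54532 genes in the deposited table. They were taken by gene symbol, and each symbol matched 1 gene of that table. By role they comprise 12 genes of the replicative helicase, 7 of origin licensing and firing, and 14 of the polymerases, primase, sliding clamp and clamp loader. A further 5 serve strand joining and chromatin, 5 make nucleotides, and 4 encode cyclin E and E2F factors. All 47 had a mean of at least 1 FPKM (fragments per kilobase, a level that allows for gene length and library size) and were therefore among the 12166 genes tested.

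The libraries came from wild-type mouse CD4+ T cells of the spleen that started as naive cells and were cultured for 3 days under conditions for T follicular helper (Tfh) cells, which help B cells. The 2 DMF libraries came from cultures with dimethyl fumarate, an electrophilic fumarate ester known to activate the antioxidant factor Nrf2, and the 2 control libraries from cultures without it. The sources used here do not give the strain, age or number of the mice or the dose of DMF. No label states that replicates are separate cultures, so p-values reflect only how far these samples differ, which may be technical. The T cell markers Cd3e, Cd4 and Trac were present in every library, at 46.0 to 57.3, 100.3 to 128 and 314 to 689 FPKM.

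Before a cell copies its DNA, the origin recognition complex with Cdc6 and Cdt1 loads rings of Mcm2 to Mcm7 onto origins, and geminin, the product of Gmnn, blocks a second loading. Cyclin E with its kinase and the Cdc7 kinase then switch the rings on with Cdc45 and the GINS complex, and polymerases copy both strands behind the moving helicase. Many of these genes are switched on late in the G1 phase by E2F factors, and antigen-stimulated T cells, which divide quickly, are known to induce them strongly.

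RefSeq promoter windows (GRCm38.p6) of 250 bases before to 50 after each transcript start were found for 38 of the 47 genes. Because E2F factors are the textbook regulators of this set, the windows were searched on both strands for the letters TTTCCCGC, TTTCGCGC, TTTGCCGC and TTTGGCGC, forms of the E2F site that can overlap each other. At least 1 of these was present in 15 of the 38 genes (39.5%), against 2.6% of all 27025 genes with a window and 5.01% of the 8299 that were also tested. Counted by window, the share was 31.9% of 47 for the replication genes and 2.26% of 32851 overall. Such a match is a description of letters and not a shown binding site. The stretches below lie before the RefSeq transcript start of their window and run along the gene's own strand, 5′ to 3′, with the matching letters in capitals. Those of Cdc6, Uhrf1, Mcm7 and Rfc3 lie inside the gene bounds of the deposited table, which begin farther upstream, and the table's bounds of Orc1 begin within its stretch. The first 6 belong to genes that were higher in both DMF libraries, and Mcm7 and Rfc3 are shown because they hold the same letters while their groups overlapped.
Cdc6 (chr11:98907997-98908036, + strand): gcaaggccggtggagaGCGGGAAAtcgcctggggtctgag
Mcm5 (chr8:75109340-75109383, + strand): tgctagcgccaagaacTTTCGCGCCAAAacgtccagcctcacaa
Mcm6 (chr1:128359729-128359831, - strand): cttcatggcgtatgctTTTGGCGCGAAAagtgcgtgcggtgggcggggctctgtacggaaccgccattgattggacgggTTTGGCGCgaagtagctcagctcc
Orc1 (chr4:108579411-108579450, + strand): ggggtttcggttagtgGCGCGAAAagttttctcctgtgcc
Pola1 (chrX:93632270-93632309, - strand): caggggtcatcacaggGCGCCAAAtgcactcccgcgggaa
Uhrf1 (chr17:56304112-56304151, + strand): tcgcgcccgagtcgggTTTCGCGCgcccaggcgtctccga
Mcm7 (chr5:138172025-138172064, - strand): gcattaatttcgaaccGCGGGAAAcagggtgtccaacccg
Rfc3 (chr5:151651209-151651234, - strand): aagtgacgtcgcacgcTTTCGCGCtc

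In Mcm5 and in the first block of Mcm6, 2 of the searched sequences overlap on opposite strands . Of the 15 genes with a match, 11 had both DMF libraries above both controls and 1, E2f2, had both below, with a median log2 difference of 0.344. Of the 23 genes without one, 15 lay above and 0 below, with a median of 0.357. Of all tested genes, 26.4% lay above both controls in this way and 26.8% below.

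Most replication genes had higher levels in the DMF libraries than in the control libraries, but none passed the test across all genes. Both DMF libraries lay above both controls in 30 of the 47 genes (63.8%), against 26.4% of all tested genes, and below both in 1 gene, E2f2 (2.13%), against 26.8%. The remaining 16 genes overlapped between the groups. The median difference, DMF minus control on the log2(FPKM + 1) scale, was 0.348 over the 47 genes and -0.0133 over all tested genes, with a range from -0.44 in E2f2 to 0.90 in Pole. A positive difference was found in 40 of the 47 genes, against 48.9% of all tested genes.

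The reads of the 47 genes together took 0.395% and 0.387% of all reads in control replicates 1 and 2, and 0.542% and 0.538% in DMF replicates 1 and 2. On this measure, which does not use the authors' library scaling, both controls were low and both DMF libraries were high, with means of 0.391% ± 0.00604 and 0.540% ± 0.00287 (SD, n = 2) and a ratio of 1.38. In summed FPKM the controls lay farther apart, at 989 in replicate 1 and 1233 in replicate 2, against 1309 and 1305 with DMF. Control replicate 2 was thus much closer to the DMF libraries there. By role the ratio of read shares was 1.53 for strand joining and chromatin, 1.45 for origin licensing and firing and 1.41 for the helicase. It was 1.35 for nucleotide supply, 1.34 for the polymerase group and 1.12 for cyclin E and E2F. These ratios are not adjusted for the shift of genes at large on the scale of reads. With limma's voom on reads, the median difference of all tested genes was 0.152 (log2), against -0.0133 in FPKM. For a separation by share of reads, no share over all tested genes was worked out. The gap was narrow for cyclin E and E2F, at 0.0205% in control replicate 1 and 0.0211% in DMF replicate 2. By share of reads the groups of libraries did not overlap for any of the 6 roles. In summed FPKM they overlapped for 3: the polymerase group had 288 and 398 FPKM in the controls and 379 and 382 with DMF, nucleotide supply had 134 and 183 FPKM and 179 and 178, and cyclin E and E2F had 52.3 and 58.3 FPKM and 60.5 and 56.1. Control replicate 2 was the highest library in the first 2 of these sums, and it also held the most reads of ribosomal protein genes, whose part in its read shares was not tested. In bulk RNA, a larger share of cells in S phase and more of these transcripts per cell cannot be told apart.

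**Figure D1:**
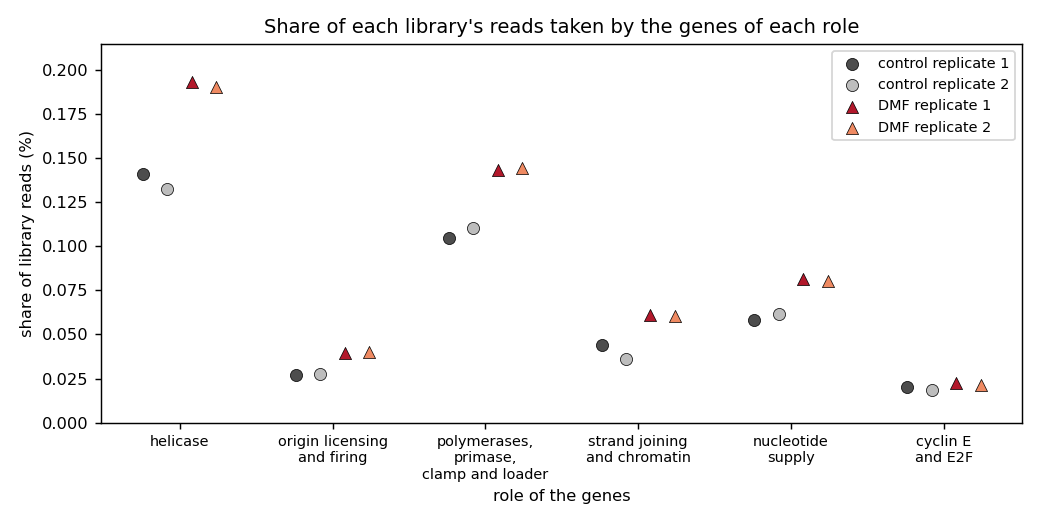
Share of all reads of a library, in percent, taken by the genes of each of the 6 roles, with 1 point per library (circles, control; triangles, DMF). In each role both triangles lie above both circles, from 0.191% and 0.193% against 0.132% and 0.141% for the helicase down to 0.0211% and 0.0225% against 0.0186% and 0.0205% for cyclin E and E2F. These shares are not adjusted for the shift of genes at large on the scale of reads.

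No single gene passed the test across all genes. limma called 0 of the 47 genes, and 0% of all 12166, at an adjusted p under 0.05, and the lowest adjusted p among the 47 was 0.384, for Mcm10. At an unadjusted p under 0.05 it took 10 of the 47 genes as higher and 0 as lower, against 3.14% and 6.31% of all tested genes. limma's voom on reads worked out from the table also called 0 genes, with 22 of the 47 higher and 0 lower at an unadjusted p under 0.05, against 4.81% and 4.95% of all tested genes (1187 genes in both directions). The controls lay farther apart than the DMF libraries: the log2 difference between them had an SD of 0.428 over the 47 genes, and that between the DMF libraries one of 0.0899. Over all tested genes these SDs were 0.745 and 0.316.

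The libraries held 15900118 to 17516953 reads in the table's genes. Control replicate 2 stood apart, with 14.13% of its reads in genes for ribosomal proteins against 6.42% to 7.01% in the other libraries. Its log2 difference from control replicate 1 went down with gene length (over all tested genes Spearman -0.44, and Pearson -0.16 with log2 length, a description). The counts over the 47 genes are therefore also given against each control alone. Both DMF libraries lay above control replicate 1 in 46 of the 47 genes (97.9%, against 43.4% of all tested genes) and below it in E2f2 (against 39.6%). Above control replicate 2 they lay in 30 genes (63.8%, against 43.6%), and below it in 16, against 49% of all tested genes. The median difference of the 47 genes was 0.429 against control replicate 1 alone and 0.169 against control replicate 2 alone. Under quantile normalization, which gives every library the same distribution, 35 of the 47 genes lay above both controls, against 29.7% of all tested genes. With the replicate number as a block limma called 0 of the 47 genes, against 1.67% of all tested genes higher and 2.87% lower.

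With 1 control left out, limma assumes that the lone control varies as the DMF libraries do, and more genes passed. Without control replicate 2 it called 24 of the 47 genes as higher and E2f2 as lower, against 2.77% and 5.51% of all tested genes. Without control replicate 1 it called 23 as higher and 11 as lower, against 27.6% and 33.4%. Over all tested genes, 1.72% were called higher in both of these fits, which share the DMF libraries, and 4.64% lower. Of the 47 genes, 13 were called higher in both, namely Mcm2, Mcm3, Mcm4, Mcm5, Mcm6, Mcm10, Cdc6, Cdc7, Pola2, Prim1, Uhrf1, Rrm1 and Rrm2. E2f2 was called lower in both. Gins1, Gmnn, Pold2, Pcna and Dut were called higher against control replicate 1 and lower against control replicate 2, as were 0.436% of all tested genes.

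**Figure D2:**
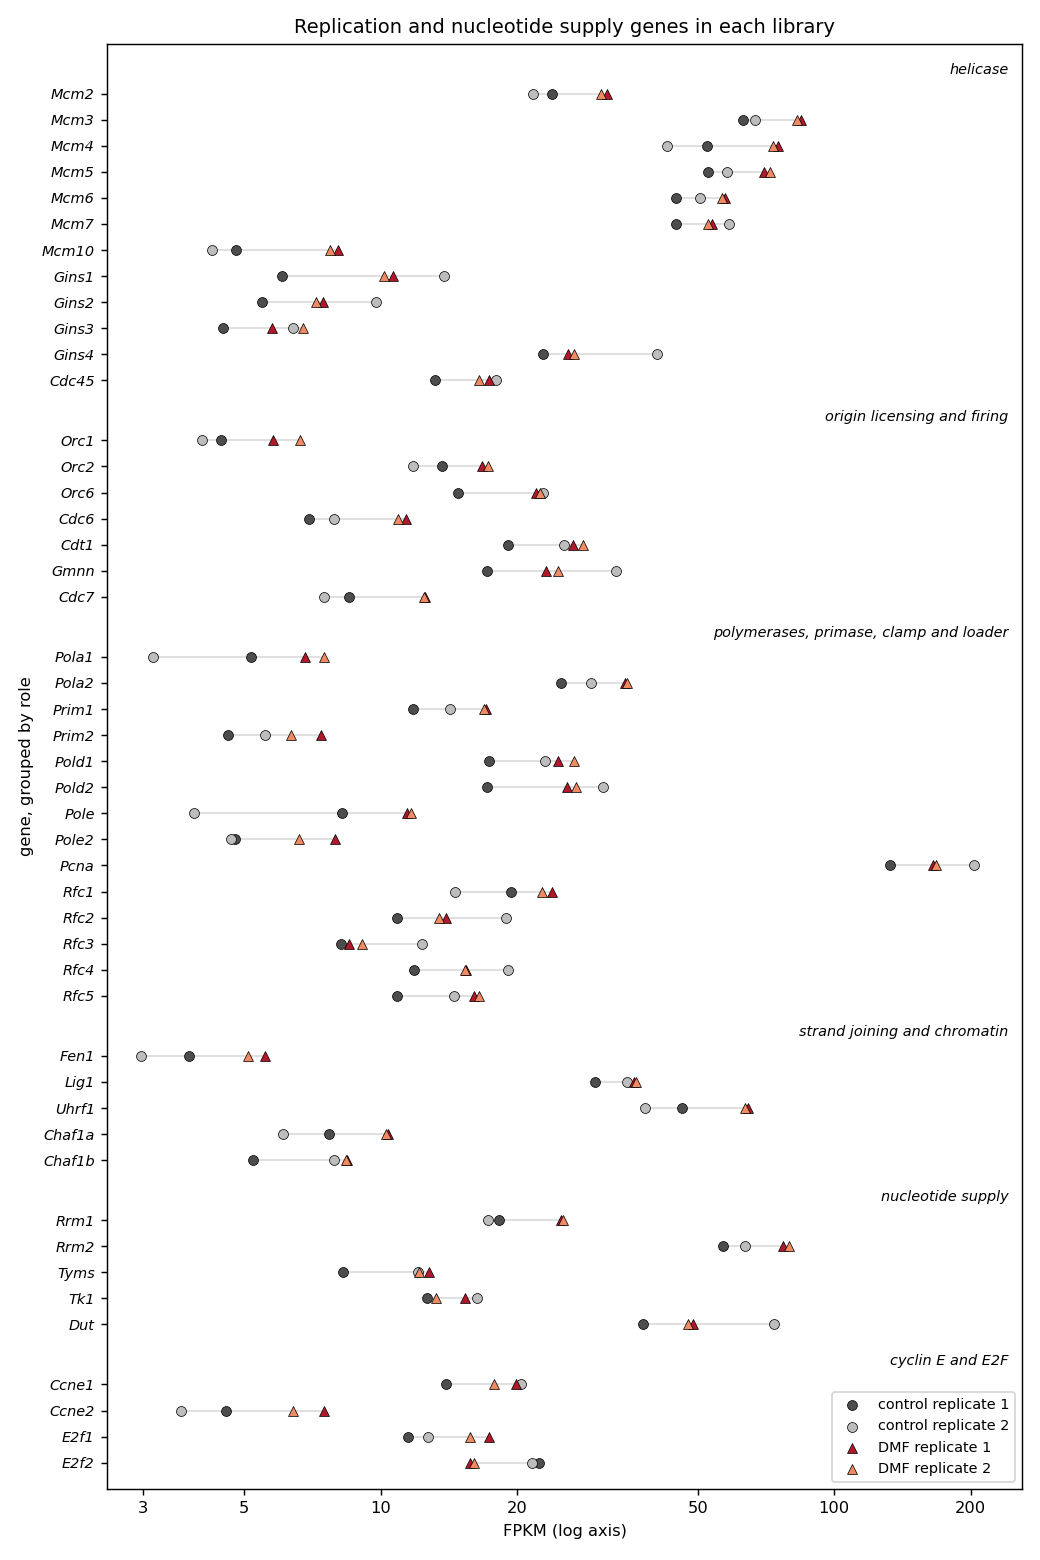
FPKM of each of the 47 genes (log axis) in each library, grouped by role (circles, control; triangles, DMF; grey lines span the 4 values). Both triangles lie to the right of both circles in 30 rows, overlap with the circles in 16 rows, and to the left of both in the row of E2f2.

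Helicase genes. Of the 12 genes, 6 had both DMF libraries above both controls (50%, against 26.4% of all tested genes) and 0 below (against 26.8%). Against control replicate 1 alone all 12 lay above (against 43.4%). Against control replicate 2 alone 6 lay above and 5 below (against 43.6% and 49%). Mcm2 to Mcm7 encode the 6 related ATPase subunits of the ring that unwinds DNA, and 5 of the 6 were higher in both DMF libraries. Mcm4 (GRCm38 chromosome 16, 15623897 to 15637400) measured 52.4 and 42.7 FPKM in control replicates 1 and 2 and 75.3 and 73.1 FPKM in DMF replicates 1 and 2. This was the widest gap of the 6, at 0.64 ± 0.21 (log2, SE, 2 libraries a group, limma adjusted p = 0.503). Mcm3 stood at 62.9 and 66.7 FPKM in the controls and at 84.4 and 82.7 FPKM with DMF. Mcm5 was found at 52.6 and 58.2 FPKM without DMF and at 70.1 and 72.1 FPKM with it. For both genes the 2 DMF values lay close together and above the higher control.

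Mcm2 was the least abundant ring subunit per length in every library, with 23.9 and 21.7 FPKM in the controls and 31.5 and 30.7 FPKM in the DMF libraries. Mcm6 had 44.8 and 50.6 FPKM in the controls and 57.4 and 56.7 FPKM with DMF, a smaller step of 0.26 ± 0.19 (log2, SE). Mcm7, at 44.7 and 58.5 FPKM in the controls and 53.7 and 52.8 FPKM with DMF, was the exception, since both DMF values fell between the controls. Although the subunits join the ring in equal numbers, the highest level, that of Mcm3, was 2.63 and 3.07 times that of Mcm2 in the controls and 2.68 and 2.70 times with DMF. FPKM divides by the summed length of all annotated exons of a gene, so levels of genes with long alternative exons are understated. Mcm7 also shares 12.6% of its exon bases with other genes, among them the microRNA genes Mir93 and Mir25 on its own strand.

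Mcm10, which helps to turn the loaded ring into an active helicase, had the smallest unadjusted p of the 47 genes in limma (0.0135). It measured 4.80 and 4.26 FPKM in the controls and 8.06 and 7.74 FPKM in the DMF libraries, a ratio of 1.75 and a difference of 0.69 ± 0.17 (log2, SE, limma adjusted p = 0.384). The GINS subunits and Cdc45, which complete the active helicase, did not separate the groups. Gins4 was at 22.8 and 40.7 FPKM in the controls and at 25.8 and 26.7 FPKM with DMF. Gins2 had 5.48 and 9.76 FPKM in the controls and 7.45 and 7.22 FPKM with DMF, and 67.3% of its exon bases overlap Gse1 on the opposite strand. In Gins1, Gins2, Gins4 and Cdc45 control replicate 2 was the highest library and control replicate 1 the lowest. Gins3 ran from 4.50 to 6.74 FPKM, with control replicate 2 between the 2 DMF libraries.

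Origin licensing and firing. All 7 genes had differences of 0.000214 or more on the log2 scale. In 5 of them both DMF libraries lay above both controls (71.4%, against 26.4% of all tested genes). Cdc6 (GRCm38 chromosome 11, 98907801 to 98923940), the ATPase that loads the Mcm ring, measured 6.95 and 7.89 FPKM in the controls and 11.4 and 10.9 FPKM with DMF. Its difference was 0.53 ± 0.17 (log2, SE, limma adjusted p = 0.498). Cdc7, the kinase that acts on the loaded ring, had 8.54 and 7.50 FPKM in the controls and 12.5 FPKM in each DMF library, a difference of 0.58 ± 0.17. In both genes the lowest DMF value was well clear of the highest control.

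Cdt1, the partner of Cdc6 in loading, was at 19.1 and 25.4 FPKM in the controls and 26.6 and 27.9 FPKM with DMF, so control replicate 2 came close to the DMF libraries. Gmnn, which encodes the inhibitor of Cdt1, was at 17.2 and 33.0 FPKM in the controls and 23.2 and 24.6 FPKM with DMF. The 2 controls enclosed the DMF values and the difference was 0.000214 ± 0.35 (log2, SE). Orc1 and Orc2, of the complex that marks origins, were higher in both DMF libraries with ratios of 1.47 and 1.34, while Orc6 (ratio 1.18) overlapped. Orc2 shares 29.8% of its exon bases with Nif3l1 on the opposite strand.

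Polymerases, primase, clamp and loader. Of the 14 genes, 9 had both DMF libraries above both controls (64.3%, against 26.4% of all tested genes) and 0 below (against 26.8%). Against control replicate 1 alone all 14 lay above (against 43.4%). Against control replicate 2 alone 9 lay above and 5 below (against 43.6% and 49%). The catalytic subunits of the replicative polymerases, Pola1, Pold1 and Pole, were all higher in both DMF libraries. Pole, the polymerase of the leading strand, had the largest difference of the 47 genes with all libraries, at 8.24 and 3.89 FPKM in the controls and 11.4 and 11.7 FPKM with DMF. That difference of 0.90 ± 0.35 (log2, SE, limma adjusted p = 0.536) became 0.44 against control replicate 1 alone, where Gins1 (0.69) and Mcm10 (0.62) were among those above it, and 1.36 against control replicate 2 alone. With the length trend removed it was 0.60, below 6 genes, among them Fen1 at 0.78, Ccne2 at 0.75 and Mcm4 at 0.73. Pola1, the polymerase that starts each new strand in a complex with primase, behaved alike. It had 5.17 and 3.15 FPKM in the controls and 6.80 and 7.49 FPKM with DMF. Its difference was 0.68 with all libraries, 0.40 without control replicate 2 and 0.97 without control replicate 1.

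Among the smaller subunits of these complexes, Pole2 was at 4.78 and 4.68 FPKM in the controls and 7.93 and 6.62 FPKM with DMF, a ratio of 1.54. Pola2, Prim1 and Prim2, which make up the primase complex with Pola1, had ratios of 1.29, 1.31 and 1.35, and all 3 separated the groups. Pold2, the second subunit of polymerase delta, did not, with 17.2 and 31.0 FPKM in the controls and 25.7 and 27.0 FPKM with DMF. The deposited length of Pola2, 2872 bp, is shorter than the 8294 bp of its exons in GENCODE M21, so its FPKM rest on another gene model.

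Pcna, the sliding clamp, was the most abundant of the 47 transcripts per length, at 133 and 204 FPKM in the controls and 165 and 167 FPKM with DMF. Its difference was 0.02 ± 0.31 (log2, SE) with all libraries, 0.32 against control replicate 1 alone and -0.29 against control replicate 2 alone. The 5 subunits of the clamp loader split as well. Rfc1 and Rfc5 were higher in both DMF libraries, with ratios of 1.38 and 1.28. Rfc2 had 10.9 and 18.9 FPKM in the controls and 13.9 and 13.5 FPKM with DMF, and Rfc3 had 8.19 and 12.3 FPKM against 8.50 and 9.09 FPKM. Rfc4 gave a ratio of 0.997. In Rfc2, Rfc3 and Rfc4 control replicate 2 was the highest of all libraries.

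Strand joining and chromatin. All 5 genes of this group had both DMF libraries above both controls (100%, against 26.4% of all tested genes), with a median difference of 0.53 on the log2 scale. That median was 0.41 against control replicate 1 alone, 0.67 against control replicate 2 alone and 0.35 with the length trend removed. Uhrf1 (GRCm38 chromosome 17, 56303321 to 56323486), which guides the maintenance DNA methyltransferase to new strands, measured 46.1 and 38.2 FPKM in the controls and 64.4 and 63.5 FPKM with DMF. That is a ratio of 1.52 and a difference of 0.60 ± 0.20 (log2, SE, limma adjusted p = 0.507). Chaf1a, a subunit of the factor that places histones on new DNA, had 7.72 and 6.11 FPKM in the controls and 10.4 and 10.3 FPKM with DMF. Its partner Chaf1b had a ratio of 1.28, and the DNA ligase Lig1 one of 1.13.

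Fen1, the nuclease that trims the flaps of lagging-strand fragments, was at 3.77 and 2.96 FPKM in the controls and 5.55 and 5.11 FPKM with DMF. It had the fewest reads of the 47 genes, 162 and 100 in the controls and 246 and 231 with DMF. The count of 100 has an exact Poisson 95% interval of 81.4 to 122, which covers counting error only. Fen1 shares 84.2% of its exon bases with Tmem258 and Gm10143 on the opposite strand, and Chaf1a shares 52.5% with Ubxn6. Whether the counting used strand is not given in the sources used here, so the values of these genes are uncertain.

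Nucleotide supply. Ribonucleotide reductase makes deoxynucleotides, and the transcripts of both its subunits were higher in the DMF libraries. Rrm1, the large subunit, was at 18.2 and 17.3 FPKM in the controls and 24.9 and 25.2 FPKM with DMF. Its difference was 0.48 ± 0.17 (log2, SE, limma adjusted p = 0.518), and it lay between 0.44 and 0.51 with any 1 library left out. With the gene length trend of each library removed it was 0.18, and the groups overlapped. Rrm2 (GRCm38 chromosome 12, 24708241 to 24714146), the small subunit whose level follows the cell cycle, was at 56.9 and 63.6 FPKM in the controls and 77.2 and 79.5 FPKM with DMF. The 2 subunits had similar ratios, 1.41 and 1.30.

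The genes for thymidine nucleotides separated the groups less clearly. Tyms, the thymidylate synthase, had 8.25 and 12.1 FPKM in the controls and 12.8 and 12.2 FPKM with DMF, so control replicate 2 nearly equalled the lower DMF library. Tk1, the thymidine kinase of the salvage route, overlapped, with 12.6 and 16.3 FPKM in the controls and 15.3 and 13.2 FPKM with DMF. Dut, which removes dUTP so that uracil stays out of DNA, was at 37.9 and 73.5 FPKM in the controls and 48.9 and 47.5 FPKM with DMF. The 2 values of Dut in the controls differed more than either differed from the DMF libraries.

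Cyclin E and E2F. The 2 E2F genes lay on opposite sides of the controls. E2f1, an activator of replication genes, was at 11.5 and 12.7 FPKM in the controls and 17.4 and 15.7 FPKM with DMF, a difference of 0.42 ± 0.17 (log2, SE, limma adjusted p = 0.549). E2f2 (GRCm38 chromosome 4, 136172394 to 136196057), a related factor that is known in T cells to restrain their entry into the cycle, was at 22.3 and 21.6 FPKM in the controls and 15.7 and 16.1 FPKM with DMF. Its difference of -0.44 ± 0.17 (log2, SE, limma adjusted p = 0.532) ran between -0.46 and -0.42 with any 1 library left out. E2f2 was the only one of the 47 genes with both DMF libraries under both controls. Its level per length exceeded that of E2f1 in both controls, while with DMF it was below E2f1 in replicate 1 and above it in replicate 2.

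Ccne2, one of 2 cyclin E genes, measured 4.57 and 3.64 FPKM in the controls and 7.50 and 6.41 FPKM with DMF, a ratio of 1.70 and a difference of 0.64 ± 0.20 (log2, SE, limma adjusted p = 0.487). Its paralog Ccne1 was at 13.9 and 20.4 FPKM in the controls and at 19.9 and 17.8 FPKM with DMF, and the groups overlapped. Ccne2 shares 17.4% of its exon bases with Ints8 on the opposite strand.

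Gene length went with the genes that failed to separate. Among the 14 genes under 3000 bp, limits chosen after the values were seen, 4 had both DMF libraries above both controls. Among the 16 genes of 3000 to 4500 bp it was 12, and among the 17 longer genes it was 14. Over all tested genes of any length the share was 26.4%. Median differences in these classes were 0.17, 0.364 and 0.372 on the log2 scale. Against control replicate 1 alone they were 0.431, 0.417 and 0.441. Control replicate 2 exceeded control replicate 1 by a median of 0.605 in the shortest class, 0.141 in the middle class and 0.162 in the longest. Across the 47 genes the difference between DMF and control correlated with log2 gene length (Pearson 0.46, Spearman 0.381), and without control replicate 2 hardly (-0.06 and -0.04). Over all 12166 tested genes, with all libraries, the values were 0.129 and 0.343. These points share the same 4 libraries and are given as a description. With the length trend of each library removed, 37 of the 47 genes had both DMF libraries above both controls (78.7%, against 29.9% of all tested genes) and E2f2 still lay below (against 24.7%). Of the 5 nucleotide supply genes, 1, Rrm2, separated that way under this setting, in place of 3, since Rrm1 and Tyms overlapped. Prim2 overlapped there too.

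**Figure D3:**
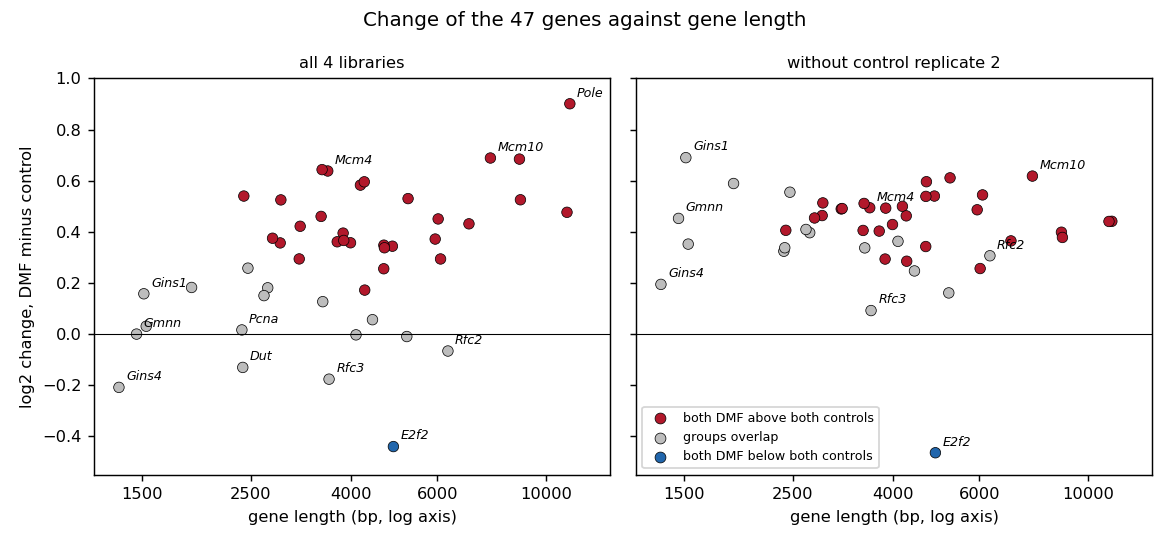
Difference between DMF and control (log2 scale) of each of the 47 genes against gene length (bp, log axis), with all 4 libraries on the left and without control replicate 2 on the right; colours give the position of the DMF libraries against both controls. The genes under 3000 bp have a median of 0.17 on the left and of 0.431 on the right, while E2f2 lies below 0 in both.

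Other replication genes were read from a list of 38 that holds none of the 47. The DMF libraries exceeded both controls in 22 of them (57.9%, against 26.4% of all tested genes) and were under both in 2 (5.26%, against 26.8%), with a median difference of 0.206. Against control replicate 1 alone 34 lay above and 3 below (43.4% and 39.6% of all tested genes), and against control replicate 2 alone 23 and 13 (43.6% and 49%). limma called 0 of the 38 at an adjusted p under 0.05. At an unadjusted p under 0.05, 10 of the 38 were higher and 0 lower, against 3.14% and 6.31% of all tested genes. Of the examples, chosen after their values were seen, Recql4, a helicase that acts at origin firing, was at 3.94 and 3.41 FPKM in the controls and 8.22 and 8.10 FPKM with DMF. Dnmt1, the maintenance methyltransferase that Uhrf1 guides, was at 41.7 and 29.4 FPKM in the controls and 58.8 and 59.0 FPKM with DMF. Both thus had DMF values well above the controls. The 2 genes below both controls were Pold4, a small subunit of polymerase delta, with a difference of -0.82, and Rnaseh2c, of the enzyme that removes RNA from DNA, with -0.67. Pold4 had 78.8 and 154 FPKM in the controls and 63.0 and 60.9 FPKM with DMF. Rnaseh2c had 24.7 and 54.4 FPKM and 22.5 and 23.0 FPKM. In both genes control replicate 2 was far the highest library, and control replicate 1 lay closer to the DMF libraries.

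Among 11 other E2F, dimer partner and pocket protein genes, 6 had both DMF libraries above both controls (54.5%, against 26.4% of all tested genes) and 0 had both below (against 26.8%). All 11 differences were positive, with a median of 0.363. The groups overlapped for E2f4, E2f5, Tfdp2, Rb1 and Rbl2, with differences from 0.064 (E2f5) to 0.363 (Rbl2). Of the 11, E2f7, E2f8 and E2f3 had the largest differences, at 0.58, 0.62 and 0.58 on the log2 scale. E2f7 and E2f8 are repressors that are themselves switched on in S phase, and E2f3 is an activator. In control replicates 1 and 2 E2f7 was at 1.97 and 1.10 FPKM, E2f8 at 5.80 and 3.71 and E2f3 at 6.10 and 4.18. Control replicate 2 was thus the lowest library in each. The median of the 11 genes was 0.267 against control replicate 1 alone and 0.621 against control replicate 2 alone. Against control replicate 1 alone, 8 of the 11 lay above and 3 below (43.4% and 39.6% of all tested genes), and against control replicate 2 alone 9 and 2 (43.6% and 49%). No difference between E2f2 and these genes was tested.

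Of 6 genes of dividing cells, 2, Mki67 and Ccnb1, had both DMF libraries above both controls (33.3%, against 26.4% of all tested genes) and 0 had both below (against 26.8%). Against control replicate 1 alone 5 lay above and 1 below (43.4% and 39.6% of all tested genes), and against control replicate 2 alone 3 and 3 (43.6% and 49%). Mki67, a marker of cycling cells, was at 37.8 and 14.9 FPKM in the controls and 46.8 and 46.4 FPKM with DMF. The mitotic cyclin gene Ccnb1 was at 13.1 and 13.8 FPKM in the controls and 17.8 and 18.4 FPKM with DMF, while Top2a, Cdk1, Aurkb and Birc5, which also act in mitosis, overlapped between the groups. Of 6 tested B cell markers, 5 had both DMF libraries above both controls (83.3%, against 26.4% of all tested genes) and 1, Fcmr, overlapped. limma called 0 of the 6 at an adjusted p under 0.05. At an unadjusted p under 0.05, 3 were higher, against 3.14% of all tested genes. The summed level of 8 B cell markers was 10.3 and 15.7 FPKM in the controls and 27.9 and 26.3 FPKM with DMF, none of them at 0. The summed level of 6 CD8 T and NK cell markers was 12.9 and 21.3 FPKM in the controls and 2.99 and 2.92 FPKM with DMF, with Ncr1 and Klrb1c at 0 in every library. Of 8 T cell markers, 4 had both DMF libraries under both controls (50%, against 26.8% of all tested genes) and 0 had both above (against 26.4%). The median difference of these 8 was -0.025 against control replicate 1 alone and -0.600 against control replicate 2 alone. The summed level of 6 myeloid markers was 4.32 and 7.04 FPKM in the controls and 2.58 and 1.21 FPKM with DMF. The part of these cells in the values of the replication genes was not tested. For scale, the 47 replication genes summed to 989 and 1233 FPKM in the controls and 1309 and 1305 FPKM with DMF.

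**Figure D4:**
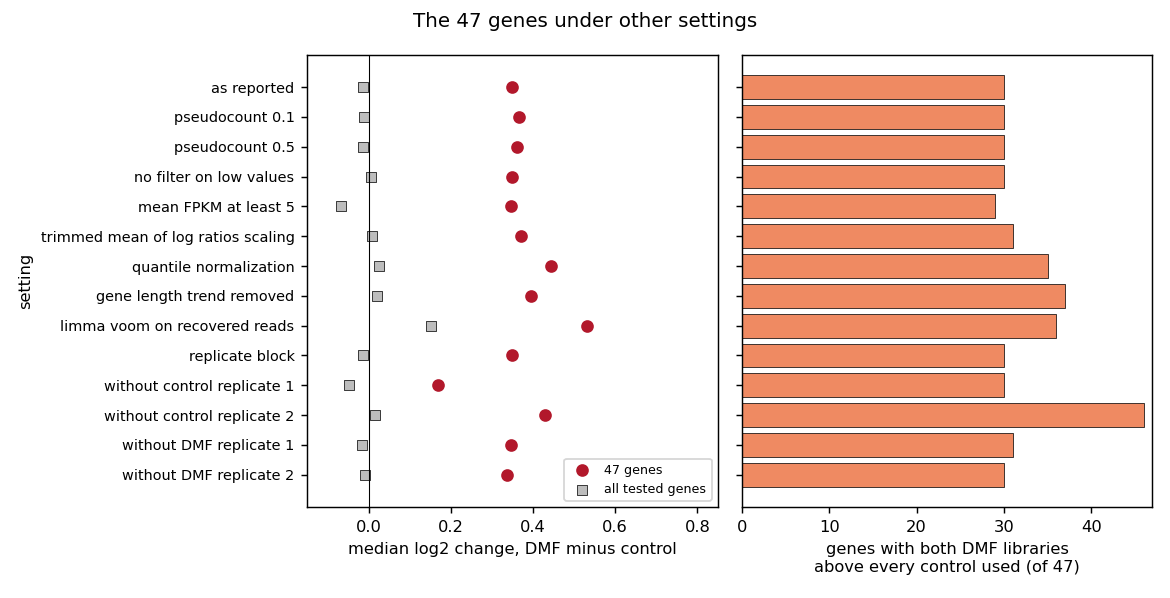
Left, median difference between DMF and control (log2 scale) of the 47 genes (circles) and of all tested genes (squares) under each setting. Right, number of the 47 genes with both DMF libraries above every control used; the circles stay between 0.169 and 0.532, right of the squares in every row, and the bars between 29 and 46. The bar of 29, with a minimum mean FPKM of 5, is out of 46 tested genes. The bar of 46 is against control replicate 1 alone, where 43.4% of all tested genes lay above, against 26.4% with all libraries.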

How the data were processed

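The authors deposited 1 table of FPKM values (RNA-seq, total RNA) for 54532 genes with 4 library columns, all used, and gene lengths in a column of other values, per the file headers. Neither an aligner nor a counting program is given in the sources used here. Per the submitters' processing notes, the build was mm8 and edgeR was among the tools, in a role they do not state. However, 98.33% of 54409 shared gene identifiers have GENCODE M21 (GRCm38) coordinates, so positions are given as GRCm38. Deposited gene lengths equal the summed exon length in 98.01% of these.

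FPKM times length gave whole multiples of 1 step for 100% of values, within 0.01, hence reads per gene. The library size that the deposited FPKM imply was 0.876 times the reads in control replicate 2 and 1.03 to 1.07 times in the others.

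limma 3.58.1 (R 4.3.3; lmFit, eBayes with trend) was run (two-sided) on log2(FPKM + 1), over 12166 genes whose mean FPKM reached 1, for DMF minus control, with p-values adjusted by Benjamini-Hochberg and called under 0.05. This scale understates changes of low genes. All 47 genes were accounted for. Values in every library were planned for fixed genes, the 12 smallest p and those against the majority. Pole and Pold2 were given in this way too, outside that plan. The genes and lists were chosen with earlier results of these data known. The scripts were tested on simulated data. Promoter sequences are from RefSeq; 40 of 47 windows match a GENCODE transcript on the same strand and 0 on the reverse.

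Alternatives were pseudocounts of 0.1 and 0.5, no filter, a minimum mean FPKM of 5, scaling by trimmed mean of log ratios, quantile normalization, removal of a gene length trend (loess, span 0.3), voom, a replicate block, and leaving out each library in turn.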

Additional observations from a re-analysis of the deposited data

How the results depend on the processing

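The median difference of the 47 genes kept its sign under all 13 alternatives run. It was 0.532 with voom on the recovered reads, where the median of all tested genes moved from -0.0133 to 0.152, and it ran from 0.169 to 0.429 with 1 library left out, lowest without control replicate 1. Over those left-out fits the number of the 47 genes above every control ran from 30 to 46 and that below from 1 to 16, the number called from 0 to 34, and the number of all genes called from 6 to 7420. The labels do not tie the replicate numbers to an animal or day, and deviations of same-numbered samples did not go together (r = -0.023 over 12166 genes). With the replicate number as a block, limma called 552 genes over all and 0 of the 47. Some genes changed sign, none of them called outside the left-out fits. Gins2 had 0.0032 and 0.000209 at pseudocounts of 0.1 and 0.5, 0.0194 with the trimmed mean scaling, 0.0515 with the length trend removed and 0.171 with voom. Gins4 had 0.172 and Dut 0.11 with the length trend removed. Under quantile normalization Rfc2 had 0.0114, Tk1 0.059 and Dut 0.168, and with voom Rfc2 had 0.0991, Tk1 0.157 and Dut 0.0352. Tk1 had 0.0133 with the trimmed mean scaling. With 1 library left out, log2 differences ran from -0.134 to 0.247 for Mcm7, -0.375 to 0.69 for Gins1, -0.369 to 0.363 for Gins2, -0.0344 to 0.397 for Gins3, -0.611 to 0.195 for Gins4 and -0.0834 to 0.337 for Cdc45. They ran from -0.039 to 0.555 for Orc6, -0.452 to 0.453 for Gmnn, -0.224 to 0.589 for Pold2, -0.291 to 0.324 for Pcna, -0.439 to 0.307 for Rfc2, -0.444 to 0.0922 for Rfc3 and -0.29 to 0.352 for Rfc4. For Tk1 the range was -0.18 to 0.161, for Dut -0.598 to 0.338 and for Ccne1 -0.108 to 0.409. The depth of 100 to 7497 reads per gene and library limits the precision of the lowest genes, and 2 libraries a group limit all of them.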

Other observations

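Genes that make nucleotides beyond the 5 described above were read from a list of 28. The DMF libraries exceeded both controls in 11 of them (39.3%, against 26.4% of all tested genes) and lay below both in 5 (17.9%, against 26.8%). limma called 0 of the 28. At an unadjusted p under 0.05, 5 were higher and 2 lower, against 3.14% and 6.31% of all tested genes. Against control replicate 1 alone 23 lay above and 5 below (43.4% and 39.6% of all tested genes), and against control replicate 2 alone 11 and 13 (43.6% and 49%). The genes named here were chosen after their values were seen. Cad, which starts pyrimidine synthesis, was at 31.3 and 18.7 FPKM in the controls and 48.6 and 47.2 FPKM with DMF, and Pfas, of the purine route, at 12.7 and 7.36 FPKM and 19.5 and 21.0 FPKM. In both genes control replicate 2 was the lowest library. Umps and Dhodh, of later steps of pyrimidine synthesis, overlapped between the groups.

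Below both controls lay Samhd1, the phosphohydrolase that breaks down deoxynucleotides, with 43.0 and 39.4 FPKM in the controls and 27.1 and 27.6 FPKM with DMF. Ctps2, one of 2 CTP synthases, was at 13.6 and 15.97 FPKM in the controls and 9.03 and 8.56 FPKM with DMF, while its paralog Ctps was at 17.4 and 21.0 FPKM and 22.6 and 24.0 FPKM. The paralogs thus lay on opposite sides of the controls, a difference that was not tested. The mitochondrial nucleoside kinases Tk2 and Dguok also lay below both controls, with log2 differences of -0.37 and -0.30.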
